A study of Homo sapiens with 16 samples.

Results

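The genes described are 51 ribosome biogenesis and nucleolar genes, chosen by symbol, and all 51 were found once among the 58051 gene identifiers of the deposited table and passed the filter on low values that left 13765 genes tested. They were read in P493-6, an immortalised human B cell line that carries a MYC transgene switched off by doxycycline and an Epstein-Barr virus EBNA2 protein that needs estrogen for its activity. There were 4 groups of 4 libraries, with 16 in all. High MYC cells grew in plain DMEM with serum. For medium MYC, doxycycline at 0.1 µg/mL together with β-estradiol at 1 µM was present from 24 h before treatment. At each MYC level, cells then took either DMSO, the vehicle and control, or IMP1088 at 100 nM for 24 h, which blocks the N-myristoyltransferases, enzymes that attach a fatty acid to the start of proteins. The additives set the MYC level, so effects of MYC, doxycycline and estradiol cannot be told apart, and all groups come from 1 cell line. The labels do not say that replicates were separate cultures, so p-values measure only the spread between these libraries, which may be technical.

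Ribosomes are built mainly in the nucleolus. RNA polymerase I makes a long precursor that small nucleolar ribonucleoproteins (snoRNPs) modify and that assembly factors fold, cut and split into the small (40S) and large (60S) subunits. Box C/D snoRNPs methylate the RNA and box H/ACA snoRNPs convert uridine to pseudouridine. MYC is a transcription factor that binds the E-box CACGTG and is long known to drive ribosome biogenesis genes. By role, the list held 8 snoRNP genes, 16 small subunit factors, 19 large subunit factors and 8 genes of RNA polymerase I or of the nucleolus at large.

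Because the members moved together between MYC levels, their promoters are shown first. RefSeq windows on GRCh38.p14, from 250 bases before to 50 after the annotated start, were found for 43 of the 51 genes. The palindrome CACGTG, which reads the same on both strands, was in at least 1 window of 21 of the 43, or 48.8%. The same letters were in the windows of 12.9% of the 9888 tested genes that had one and of 8.77% of all 27305 genes in the promoter table. They were in 24.8% of 117 other ribosome biogenesis genes and in 6.45% of 62 cytosolic ribosomal protein genes. The ETS-type letters TTCCGG, on either strand, were in 53.5% of the members and 36.4% of tested genes, and the SP1-type letters GGGCGG in 74.4% and 76.0%. These motifs can overlap each other, and a match is a description of letters, not of binding. The 6 windows below stop at the annotated start, or at the end of an E-box that spans it. They show RRP9, which had the most negative MYC-level change among small subunit factors and whose E-box runs across the start, NAT10 and UTP20 with an E-box just before the start, NOP10 with 2 E-boxes and the smallest change of all members, and NOP16 and LAS1L with none. Each is written 5′ to 3′ on the gene's strand, with CACGTG in capitals.
RRP9: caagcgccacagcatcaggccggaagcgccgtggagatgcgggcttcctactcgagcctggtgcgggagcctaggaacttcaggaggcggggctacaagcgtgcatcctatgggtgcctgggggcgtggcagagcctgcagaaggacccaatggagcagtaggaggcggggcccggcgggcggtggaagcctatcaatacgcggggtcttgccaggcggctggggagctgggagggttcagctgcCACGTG
NAT10: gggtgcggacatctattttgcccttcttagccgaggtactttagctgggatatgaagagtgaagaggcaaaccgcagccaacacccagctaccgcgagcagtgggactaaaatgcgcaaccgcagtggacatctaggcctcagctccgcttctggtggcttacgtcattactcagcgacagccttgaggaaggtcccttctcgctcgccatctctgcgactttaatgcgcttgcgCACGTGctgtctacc
UTP20: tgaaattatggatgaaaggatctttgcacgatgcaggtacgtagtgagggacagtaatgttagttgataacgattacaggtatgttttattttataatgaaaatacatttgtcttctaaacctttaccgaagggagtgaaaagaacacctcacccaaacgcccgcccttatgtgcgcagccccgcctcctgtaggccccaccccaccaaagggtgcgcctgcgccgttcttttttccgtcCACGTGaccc
NOP10: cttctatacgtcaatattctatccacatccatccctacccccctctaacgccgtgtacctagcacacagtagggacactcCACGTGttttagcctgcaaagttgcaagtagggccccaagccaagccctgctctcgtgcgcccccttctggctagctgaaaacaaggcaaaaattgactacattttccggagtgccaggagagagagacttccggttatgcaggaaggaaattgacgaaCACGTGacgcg
NOP16: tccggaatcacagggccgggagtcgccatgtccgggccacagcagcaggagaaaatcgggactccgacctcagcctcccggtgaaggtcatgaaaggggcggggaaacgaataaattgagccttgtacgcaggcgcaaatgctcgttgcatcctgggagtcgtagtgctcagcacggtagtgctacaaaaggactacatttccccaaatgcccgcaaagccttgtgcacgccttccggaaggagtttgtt
LAS1L: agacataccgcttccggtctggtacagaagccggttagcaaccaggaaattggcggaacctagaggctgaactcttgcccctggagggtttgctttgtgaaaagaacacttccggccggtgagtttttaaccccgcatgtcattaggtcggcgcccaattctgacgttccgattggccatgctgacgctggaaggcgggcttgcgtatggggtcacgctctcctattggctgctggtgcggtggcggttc
The positions are chr3:51941904-51942154 on the minus strand for RRP9, chr11:34105379-34105628 on the plus strand for NAT10, chr12:101279855-101280104 on the plus strand for UTP20, chr15:34343137-34343386 on the minus strand for NOP10, chr5:176388599-176388848 on the minus strand for NOP16 and chrX:65534788-65535037 on the minus strand for LAS1L. Counted from the start site, the E-box began at base -5 in RRP9, -15 in NAT10, -10 in UTP20, and -170 and -11 in NOP10. The ranges of change with and without the letters overlapped. The 21 genes with CACGTG had a median log2 change between MYC levels of -1.29, ranging from -2.19 to -0.23, and the 22 without had a median of -1.15, ranging from -2.19 to -0.25.

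MYC itself checked the groups. Its normalized count, the deposited unit, which is reads divided by a factor for library depth, averaged 31649 ± 2129.7 (SD over 4 libraries) in the high MYC controls, against 959 ± 48.7 in medium MYC controls, a 33.0-fold lower level. With IMP1088 it was 47542 ± 505 at high and 1382 ± 51.2 at medium MYC, higher than in controls by 0.59 and 0.53 on the log2 scale (limma, adjusted p = 7.24e-10 and 2.74e-09). Libraries held 8755296 to 13858534 reads and 18899 to 21081 genes above 0. The summed B cell markers ran from 25599 to 25763 in high MYC controls, 20785 to 21709 with inhibitor at high MYC, 40881 to 41573 in medium MYC controls and 36160 to 37430 with inhibitor at medium MYC, and none of the 8 was at 0. The higher sum in medium MYC controls came mostly from MS4A1, at 11652 in high and 22639 in medium MYC controls, and from CD22, while CD79A went from 3096 to 2854, CD79B from 1574 to 1464 and BLNK from 904 to 791. The plasma cell marker sum ran the other way, at 1823 to 1879, 2011 to 2133, 684 to 737 and 1164 to 1300 in the same order, mostly from XBP1. With inhibitor XBP1 went from 1383 to 1598 at high and from 405 to 843 at medium MYC. PRDM1 went from 221 to 289 and from 194 to 258. The others were mixed, with TNFRSF17 from 153 to 114 and from 84.5 to 93.2. SDC1 went from 87.1 to 92.4 and from 24.9 to 23.8. T and NK cell markers summed to at most 106 and myeloid markers to at most 83.6 in any library, mostly from CD3E and LYZ. From high to medium MYC controls, CD3E went from 37.3 to 59.6, NKG7 from 3.07 to 23.2 and CD4 from 0.377 to 4.74. Of the myeloid list, LYZ went from 47.8 to 49.4, CSF1R from 0.279 to 5.81 and CD14 from 2.42 to 2.23. CD8A, FCGR3A and MPO were at or near 0. The epithelial and fibroblast list summed to 4466 to 5163 at high MYC and 7838 to 9862 at medium MYC, nearly all from VIM, which B cells also express. In that list KRT18 was at 0 in all libraries, while COL1A1 averaged 7.09 in high MYC and 164 in medium MYC controls. EPCAM went the other way, from 62.1 in high MYC to 13.1 in medium MYC controls. KRT8 and COL1A2 were low in all groups and were higher in medium than in high MYC controls. The part of these shifts in the results below was not tested, and in bulk RNA fewer cells and less RNA per cell cannot be told apart.

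Among controls, all 51 genes had lower levels at medium MYC than at high MYC, with every library of one group apart from every library of the other. Of all tested genes, 37.3% were called lower at an adjusted p below 0.05 and 33.6% had groups apart in that direction. The median log2 change of the members was -1.29, a 2.45-fold lower level, against a median of 0.02 over all tested genes, and members ranged from -2.19 to -0.23. A fall of at least 2-fold was called for 38 of the 51, against 10.7% of all tested genes. The members were chosen with earlier results of these data known, so these counts are not free of that choice. Summed over the members, the share of all normalized counts was 1.10% ± 0.0154 (SD, n = 4) at high MYC and 0.449% ± 0.00694 at medium MYC. The fold changes are on the log2(normalized count + 1) scale. Normalized counts are scaled within each library, so these levels are relative to its other RNA and are not amounts per cell.

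**Figure D1:**
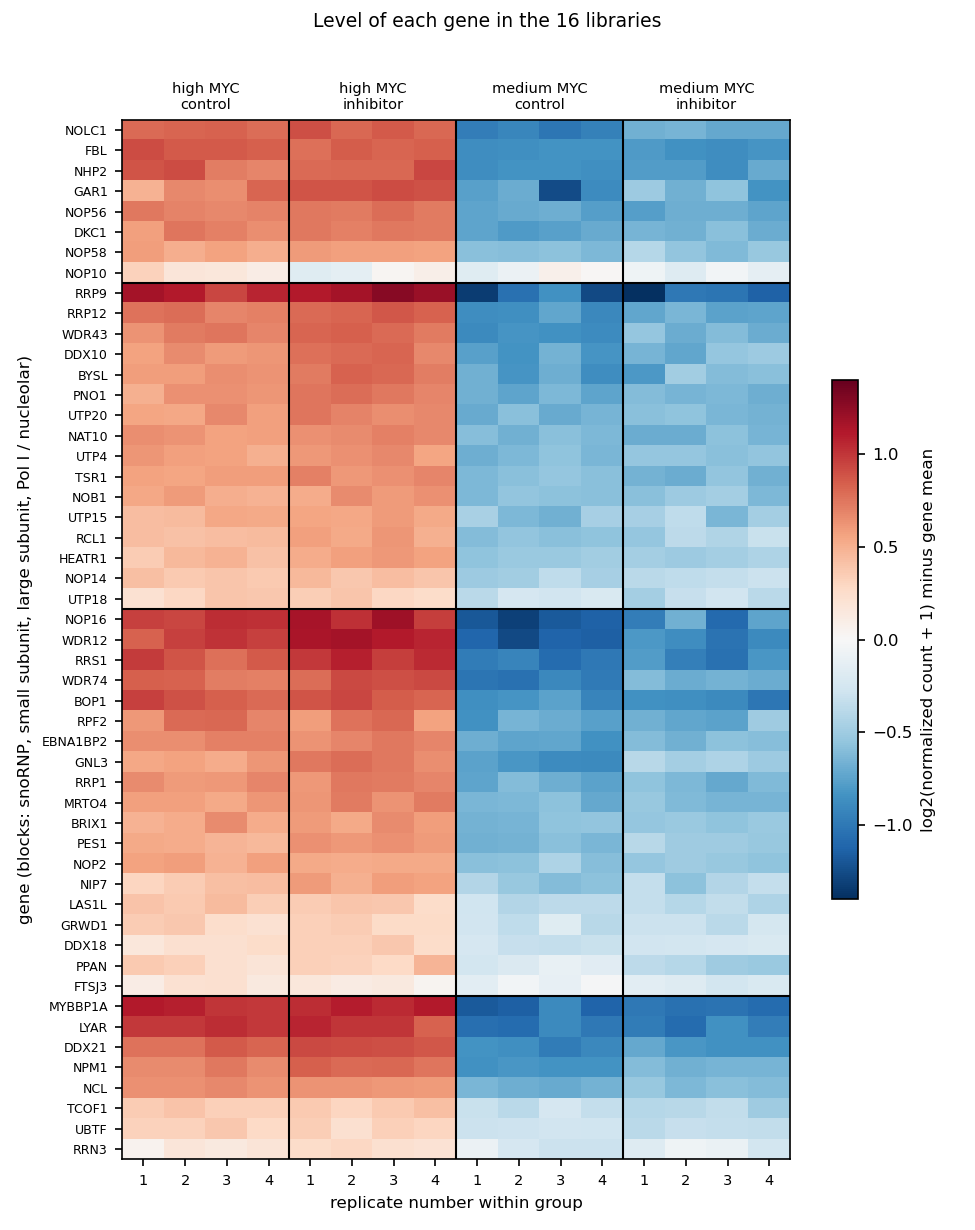
Heat map of log2(normalized count + 1) minus each gene's mean over the 16 libraries, with genes in rows by role and libraries in columns by group. The 8 high MYC columns are red and the 8 medium MYC columns blue for nearly all genes; the NOP10 row is close to white.

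The snoRNP genes all fell, 7 of 8 by at least 2-fold, with a median log2 change of -1.49. Of all tested genes, 37.3% were called lower and 10.7% lower by at least 2-fold. NOLC1 (ENSG00000166197, chr10:102152176-102163871) encodes a chaperone that carries snoRNPs between the nucleolus and Cajal bodies. It read 4868, 4918, 4982 and 4817 in high MYC controls and 1430.1, 1491, 1393 and 1451 in medium MYC controls, -1.76 ± 0.030 on the log2 scale (estimate ± SE; limma adjusted p = 4.72e-22). With inhibitor it read 5221, 4907, 5099 and 4889 at high MYC and 1763, 1790.1, 1704 and 1710.1 at medium MYC. Every medium MYC value lay below every high MYC value.

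The box C/D core comprises the methyltransferase FBL and the scaffold proteins NOP56 and NOP58. FBL (ENSG00000105202, chr19:39834458-39846414) read 3937, 3797, 3791 and 3734 in high MYC controls and 1140.1, 1146, 1165 and 1165 in medium MYC controls, or 3561, 3756, 3664 and 3727 at high MYC and 1206, 1155, 1144 and 1177 at medium MYC with inhibitor. Its log2 change in controls was -1.72 ± 0.028, larger than that of NOP56 at -1.43 ± 0.030 and of NOP58 at -1.14 ± 0.039. The NOP58 to NOP56 ratio of normalized counts was 0.563 in high MYC controls and 0.687 in medium MYC controls, while FBL to NOP56 went from 1.20 to 0.979. These ratios are not per length and are given for their change alone.

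The box H/ACA core, which is also part of telomerase, comprises the pseudouridine synthase DKC1 with GAR1, NHP2 and NOP10. DKC1 (ENSG00000130826, chrX:154762742-154777689) read 1735, 1953, 1907 and 1832 in high MYC controls and 698, 675, 689 and 713 in medium MYC controls, or 1941, 1902, 1950.4 and 1932 at high MYC and 743, 729, 779 and 721 at medium MYC with inhibitor, and its log2 change in controls was -1.42 ± 0.037. GAR1 changed by -1.55 ± 0.100 and NHP2 by -1.65 ± 0.051. NOP10 (ENSG00000182117, chr15:34341713-34343177), the smallest core protein, changed less than its partners. It read 577, 520.0, 514 and 495 in high MYC controls and 409, 436, 484 and 465 in medium MYC controls, -0.23 ± 0.065 on the log2 scale (adjusted p = 0.00286). The groups were apart, with a narrow gap between the lowest high MYC and the highest medium MYC value. The NOP10 to DKC1 ratio was 0.283 in high MYC controls and 0.645 in medium MYC controls.

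Among small subunit factors all 16 fell, 13 by at least 2-fold, against 37.3% and 10.7% of tested genes, and the median was -1.21. RRP9 (ENSG00000114767, chr3:51933430-51941941), a protein specific to the U3 snoRNP that guides the early cuts in the 18S region, read 603, 579, 515 and 562 in high MYC controls and 106, 130.1, 149 and 112 in medium MYC controls. With inhibitor it read 581, 603, 653 and 625 at high MYC and 101, 134, 132 and 122 at medium MYC. Its change in controls was -2.19 ± 0.096, 4.55-fold, and its lowest library held 87 reads, the fewest of any member. RRP12 (ENSG00000052749, chr10:97356358-97426076), a factor of late 40S maturation and export, read 1105, 1122, 1046 and 1063 at high against 357, 359.6, 393 and 349 at medium MYC in controls and 1129, 1146, 1196 and 1158 at high against 395, 420.2, 387 and 391 at medium MYC with inhibitor, a change in controls of -1.57 ± 0.044.

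The early t-UTP (UtpA) proteins of the small subunit processome differed in size of change. WDR43 fell by 1.56, UTP4 by 1.19, UTP15 by 1.04 and HEATR1 by 0.95 on the log2 scale. WDR43 (ENSG00000163811, chr2:28894643-28948222) read 2299, 2461, 2494 and 2384 in high MYC controls and 796, 836, 822 and 807 in medium MYC controls. HEATR1 (ENSG00000119285, chr1:236549005-236604504) read 3495, 3755, 3837 and 3623 at high MYC and 1857, 1913, 1903 and 1951 at medium MYC, also in controls. UTP18 (ENSG00000011260, chr17:51260528-51297936), a UtpB protein of the same particle, had the smallest change of the role, from 602, 633, 679 and 674 to 398, 440.1, 431 and 449 in controls and from 661, 682, 636 and 623 to 373, 414, 432 and 398 with inhibitor, -0.59 ± 0.055 in controls. Between these sizes lay the helicase DDX10 at -1.38, the 40S factor BYSL (bystin) at -1.38, UTP20 at -1.24, the 18S cytidine acetyltransferase NAT10 at -1.23, RCL1 at -1.01 and NOP14 at -0.84. The late factors PNO1, TSR1 and the 18S 3′ end nuclease NOB1 changed by -1.29, -1.16 and -1.12.

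All 19 large subunit factors fell, 13 by at least 2-fold, against 37.3% and 10.7% of tested genes, with a median of -1.21. NOP16 (ENSG00000048162, chr5:176383938-176388975), a component of early 60S precursors, read 752, 742, 795 and 790.2 in high MYC controls and 170.0, 156, 171 and 176 in medium MYC controls, with 862, 789, 882 and 757 at high MYC and 198, 242, 182 and 232 at medium MYC under inhibitor. Its change of -2.19 ± 0.076 in controls was the most negative of all 51, level with RRP9. WDR12 (ENSG00000138442, chr2:202874782-203014798) belongs with PES1 and BOP1 to the PeBoW complex, which is needed to process the 28S and 5.8S region. It read 1084, 1187, 1237 and 1193 at high MYC and 283, 255, 280.0 and 277 at medium MYC in controls and 1349.6, 1379, 1322 and 1288 at high MYC and 349.5, 335, 299 and 329.7 at medium MYC with inhibitor, a change in controls of -2.10 ± 0.052. Its partners changed by -1.71 ± 0.049 for BOP1 and -1.13 ± 0.035 for PES1, so the PES1 to BOP1 ratio went from 1.21 to 1.81 between the control groups. RRS1 and RPF2, which bring in the 5S RNA particle, changed by -1.87 and -1.46.

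In this role 6 members changed by less than 2-fold. FTSJ3 (ENSG00000108592, chr17:63819433-63830012), a methyltransferase of the precursor RNA, read 851, 918, 927 and 872 in high MYC controls and 715, 773, 731 and 785 in medium MYC controls, -0.25 ± 0.043. The helicase DDX18 changed by -0.52, PPAN by -0.46, the histone and ribosomal protein chaperone GRWD1 by -0.59, LAS1L, part of the ITS2 nuclease complex, by -0.75 and NIP7 by -0.91. The rest, WDR74, EBNA1BP2, the GTPase GNL3 (nucleostemin), RRP1, MRTO4, BRIX1 and the 28S methyltransferase NOP2, changed by -1.76 to -1.10.

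**Figure D2:**
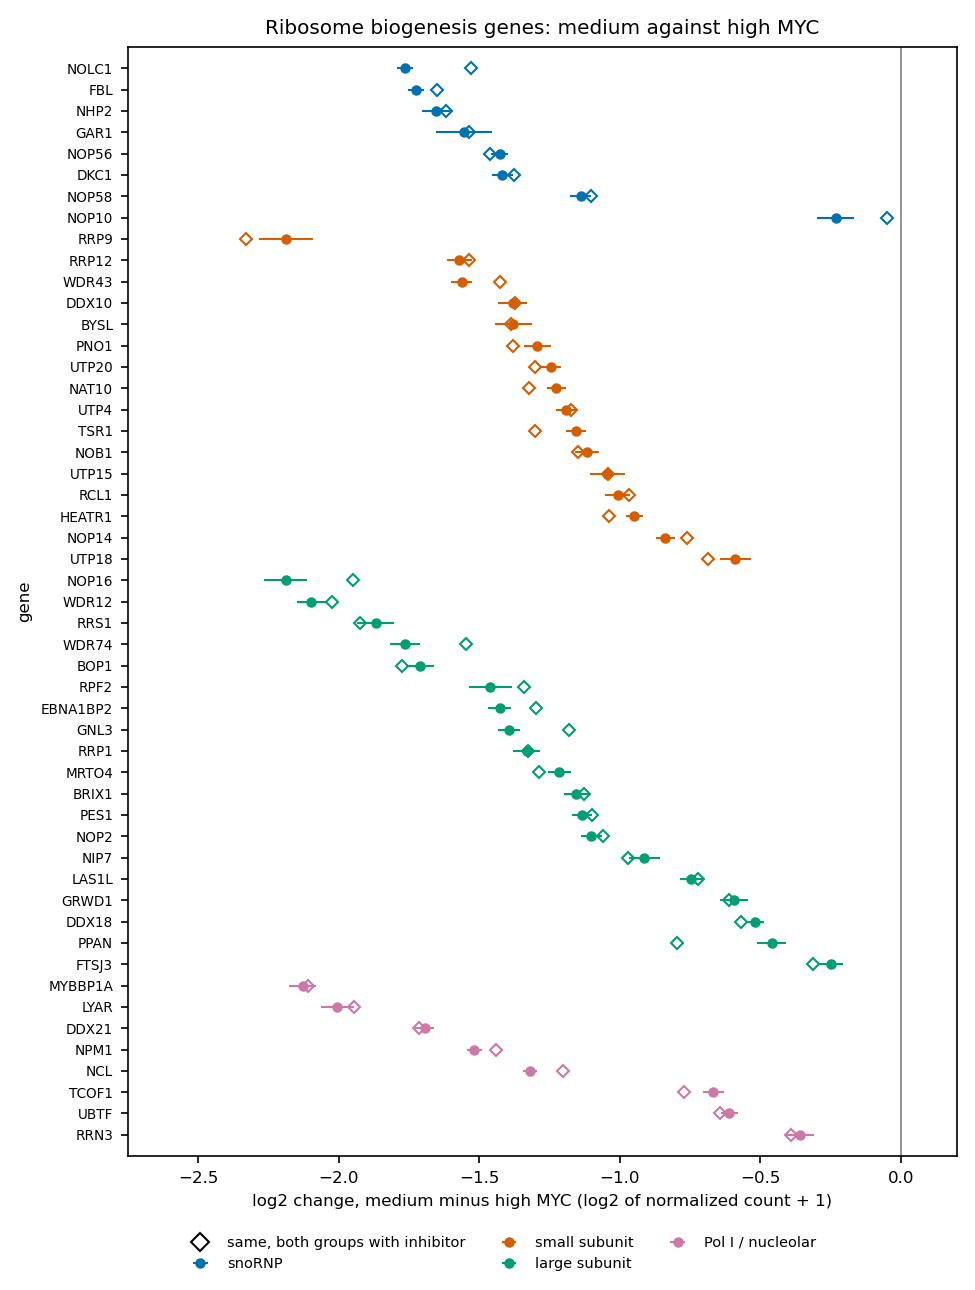
Log2 change from high to medium MYC for each gene, grouped by role. Filled points are controls with the standard error of the fit (n = 4 against 4) and open diamonds are the same comparison among inhibitor-treated libraries; all points lie below 0, and NOP10 is nearest to it.

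The 8 genes of RNA polymerase I and the nucleolus all fell, against 37.3% of tested genes, with a median of -1.42, but they split by size. MYBBP1A (ENSG00000132382, chr17:4538897-4555631), a nucleolar MYB-binding protein, read 2921, 2893, 2722 and 2697 in high MYC controls and 602, 616, 729.9 and 624 in medium MYC controls, or 2777, 2902, 2801 and 2938 at high MYC and 679, 657, 664 and 644 at medium MYC with inhibitor, and changed by -2.13 ± 0.048 in controls. LYAR (ENSG00000145220, chr4:4267701-4290169), a nucleolar zinc finger protein, read 828, 824, 849.8 and 828 at high MYC and 200.3, 197, 224 and 207 at medium MYC in controls and 870.0, 832, 835 and 740.1 at high MYC and 209.7, 197, 231 and 212 at medium MYC with inhibitor, 4.01-fold lower at medium MYC among controls. DDX21, an RNA helicase, changed by -1.69 ± 0.035. These sizes exceed those of the polymerase I factors among the members, UBTF, RRN3 and TCOF1, described next. Outside the list, the polymerase I subunit POLR1G changed by -2.49.

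UBTF (ENSG00000108312, chr17:44205033-44221626), which binds ribosomal DNA, read 2319, 2320.2, 2413 and 2244 in high MYC controls and 1508, 1517, 1533 and 1529.6 in medium MYC controls, or 2346, 2161, 2330.0 and 2279 at high MYC and 1426, 1480.1, 1464 and 1462 at medium MYC with inhibitor. Its log2 change in controls was -0.61 ± 0.031. RRN3 (ENSG00000085721, chr16:15060022-15094317), which brings the polymerase to the promoter, read 762, 828, 810.1 and 833 at high MYC and 698, 627, 599 and 599 at medium MYC in controls and 879.7, 898, 858 and 848 at high MYC and 649, 707, 688 and 614 at medium MYC with inhibitor, -0.36 ± 0.052 in controls. TCOF1 (treacle), which works with UBTF, changed by -0.67 ± 0.037. All 3 stayed under 2-fold.

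NPM1 and NCL, the histone and ribosomal protein chaperones nucleophosmin and nucleolin, were the most abundant members. Per kilobase of exon, the only scale used here between genes, high MYC controls averaged 4784 for NPM1, 2462 for NCL, 1756 for FBL and 89.1 for UTP15, the lowest. NPM1 (ENSG00000181163, chr5:171387116-171411137) read 18101, 18100.1, 19037 and 18007 in high MYC controls and 6359.7, 6479, 6369 and 6375 in medium MYC controls, -1.52 ± 0.026. NCL (ENSG00000115053, chr2:231453531-231483641) read 16954, 16984, 17395 and 16899.7 at high MYC and 6977, 6798, 6700.1 and 6881 at medium MYC, -1.32 ± 0.025. Both together made up 0.342% of high MYC control counts and 0.128% of medium MYC control counts. NPM1 has 45 named pseudogenes in the annotation, which its reads could share.

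The inhibitor-treated groups, which share no library with the controls, gave a second measure of the MYC-level difference. There 50 of the 51 were lower at medium MYC, against 37.8% of tested genes called lower, and 38 by at least 2-fold, against 11.1%. The median was -1.30, and the groups of 50 members were apart, against 35.4% of tested genes. NOP10 was the exception, at -0.05 ± 0.065 (limma, adjusted p = 0.495). Across the 51 genes the changes in the controls and in the treated groups had a Pearson r of 0.978 and a Spearman rho of 0.977, and differed by a median of 0.06 and at most 0.34, for PPAN. Genes are not independent replicates, and no p is given.

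**Figure D3:**
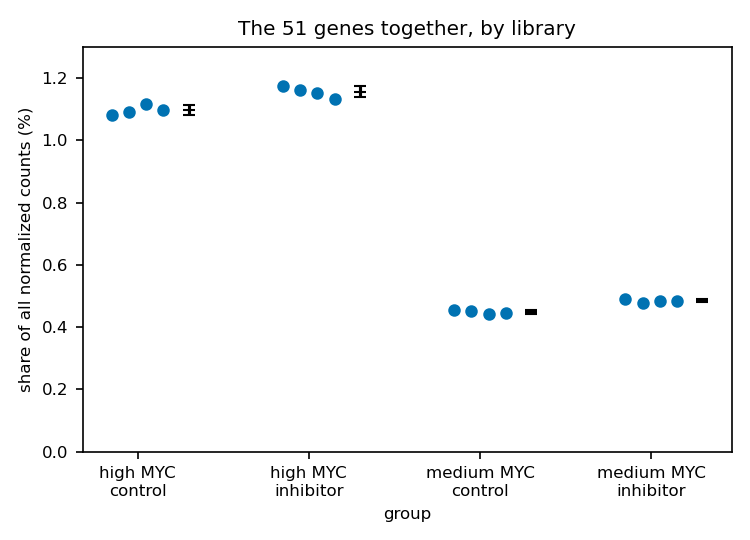
Summed normalized counts of the 51 genes as a percentage of all normalized counts, one point per library, with mean and SD beside each group (n = 4). High MYC libraries sit between 1.08 and 1.18% and medium MYC libraries between 0.442 and 0.490%, and inhibitor-treated libraries are above the controls at each level.

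Changes with IMP1088 were small beside those between MYC levels. At high MYC 13 members were called, against 26.8% of tested genes. Of these, 12 were higher and 1 lower with inhibitor, against 10.5% of tested genes called higher and 16.3% lower, and 38 were not called. Treated and control libraries did not overlap for 17 members in the higher and 2 in the lower direction, against 10.9% and 15.8% of tested genes. The median log2 change was 0.07, with -0.02 over all tested genes, and 42 of 51 estimates were above 0, against 6274 of the 13765 tested genes. The count rests on few libraries: 6 members were called without high MYC control replicate 1, 7 without inhibitor replicate 1, 8 without inhibitor replicate 2 and 7 without inhibitor replicate 3. It was 22 with quantile normalization, 21 with GC correction, 20 with edgeR on the recovered reads and 8 with no filter on low values. At medium MYC 16 members were called, against 26.3% of tested genes, with 14 higher and 2 lower, against 11.7% and 14.6%, and 35 not called. Libraries did not overlap for 12 members in the higher and 2 in the lower direction, against 12.4% and 15.4% of tested genes. The median was 0.07, with -0.01 over all tested genes. No member changed by 2-fold at either level. Of tested genes, 0.995% were called higher and 0.567% lower by at least 2-fold at high MYC, and 0.538% and 0.349% at medium MYC. The 95% intervals of all 51 lay within 0.5 of 0 on the log2 scale at both levels, between -0.38 for NOP10 at high MYC and 0.49 for NOP16 at medium MYC. The summed share was 1.16% ± 0.0178 with inhibitor at high MYC and 0.485% ± 0.00433 at medium MYC, and no treated library overlapped the controls of its level.

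Differences between roles in the inhibitor calls were not tested. At high MYC 5 of 16 small subunit factors, 5 of 19 large subunit factors and 2 of 8 polymerase I and nucleolar genes were called higher, with 0 of 8 snoRNP genes, against the 10.5% of all tested genes. At medium MYC the counts were 5, 6, 2 and 1 in the same order, against 11.7%. The 6 members higher at both levels were DDX10, GNL3, NPM1, PES1, RCL1 and WDR12. The shares of all tested genes called at both levels, at one level alone or at neither were not counted. The lists here therefore name genes and are not read as a trait of the members. GNL3, NPM1, PES1 and WDR12 kept both calls in every alternative run, whereas DDX10 lost its call in 10 at high and 7 at medium MYC, and RCL1 in 9 at high MYC. A further 6 were called higher at high MYC alone, namely DDX18, DDX21, HEATR1, NIP7, PNO1 and UTP20, and 8 at medium MYC alone, namely EBNA1BP2, NCL, NOLC1, NOP14, NOP16, RRP12, WDR43 and WDR74. Of the first of these lists HEATR1 kept its call in every alternative, while PNO1 lost it in 10, DDX21 and UTP20 in 7 each, and DDX18 and NIP7 in 4 each. Of the other list NOLC1, NOP16, WDR43 and WDR74 kept it, while RRP12 lost it in 8, EBNA1BP2 in 4, and NCL and NOP14 in 3 each. Being called at one level alone does not show a difference between levels, which has its own test. At neither level were 28 members called, among them FBL, NOP56, NOP58, DKC1, UBTF and RRN3. Of these, DKC1 at medium MYC was close to the threshold, at 0.10 ± 0.037 (limma, adjusted p = 0.0563) with treated libraries above all controls, and 8 alternatives called it. Quantile normalization called NOP56 at high MYC and NOP58 at medium MYC. The largest positive estimate at high MYC belonged to GAR1 and was not called, at 0.24 ± 0.100 (limma, adjusted p = 0.0896), with a standard error above the members' median of 0.043; edgeR, DESeq2 and the fit on the compared groups alone did call it. At medium MYC the largest after GNL3 were NOP16 at 0.33 ± 0.076 (limma, adjusted p = 0.00197) and WDR74 at 0.33 ± 0.053 (adjusted p = 6.37e-05).

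GNL3 (ENSG00000163938, chr3:52681156-52694492), a nucleolar GTPase, read 1976, 2016, 1955 and 2082 in high MYC controls and 2264, 2339, 2266 and 2144 with inhibitor, and 809, 775, 739 and 732 in medium MYC controls and 1038, 977, 1010.0 and 953 with inhibitor. Treated and control libraries did not overlap at either level, and the changes were 0.17 ± 0.039 (adjusted p = 0.0027, limma) and 0.38 ± 0.039 (adjusted p = 1.66e-07). NPM1 read 20373, 19729, 19908 and 19149 with inhibitor at high MYC and 7499, 7146, 7263 and 7283 at medium MYC, all above its controls given earlier. Its changes were 0.11 ± 0.026 and 0.19 ± 0.026 (adjusted p = 0.00229 and 7.49e-06). For WDR12 they were 0.18 and 0.26, from the library values given earlier, and for PES1, DDX10 and RCL1 the 6 estimates ran from 0.12 to 0.16.

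HEATR1 read 3927, 4084, 4166 and 4049 with inhibitor at high MYC and 1963, 1928, 1974 and 2035 at medium MYC, so its treated libraries were above the controls at high MYC and overlapped them at medium MYC. The changes were 0.14 ± 0.031 (limma, adjusted p = 0.00168) and 0.05 ± 0.031 (adjusted p = 0.25). WDR43 read 2597, 2648, 2566 and 2458 at high MYC and 1017, 917, 973 and 916 at medium MYC with inhibitor, for changes of 0.09 ± 0.038 (adjusted p = 0.0816) and 0.23 ± 0.038 (adjusted p = 9.48e-05). TSR1 (ENSG00000167721, chr17:2322503-2337507), a GTPase-like protein of the late 40S precursor, had the smallest p for a difference in response among small subunit factors. It read 2021, 2017, 2062 and 2054 in high MYC controls and 2230.3, 2089.7, 2139 and 2197 with inhibitor, and 888, 914, 944 and 913 in medium MYC controls and 869, 849, 935 and 858 with inhibitor. The difference of 0.15 ± 0.049 was not called (adjusted p = 0.0695).

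The members lower with inhibitor were NOP10 at high MYC and PPAN and FTSJ3 at medium MYC. NOP10 went from the control values above to 411, 418, 468 and 488 at high MYC, -0.24 ± 0.065 (limma, adjusted p = 0.00817), with every treated library below every control. At medium MYC it read 443, 407, 449 and 421, overlapping its controls, -0.06 ± 0.065 (adjusted p = 0.562). FTSJ3 read 883, 859, 867 and 811 at high MYC and 715, 697, 660.1 and 682 at medium MYC, where its change was -0.12 ± 0.043 (adjusted p = 0.037), a call lost under 15 alternatives.

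The response to inhibitor differed between MYC levels for 4 of the 51 genes, against 8.63% of tested genes, by the test of the difference itself in limma. This count is near the share of all tested genes, so it is no trait of the members as a list. NOLC1, GNL3 and NCL had a lower response at high than at medium MYC, against 5.33% of tested genes called in that direction, and PPAN a higher one, against 3.31%. NOLC1 changed by 0.04 ± 0.030 at high and 0.27 ± 0.030 at medium MYC, a difference of -0.23 ± 0.042 (adjusted p = 7.52e-04). Its 4 treated medium MYC libraries were at least 1704 against at most 1491 in controls, while the groups at high MYC overlapped. For GNL3 the difference was -0.21 ± 0.055 (adjusted p = 0.0155). NCL read 16862, 16825, 16554 and 16486 with inhibitor at high MYC and 7557, 7022, 7258 and 7162 at medium MYC, below its controls at high and above them at medium MYC. Its difference of -0.12 ± 0.035 (adjusted p = 0.0431) was lost under 17 alternatives, among them quantile normalization, no filter and 13 of the 16 fits without 1 library.

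PPAN (ENSG00000130810, chr19:10106289-10111634), a large subunit factor whose exons overlap those of P2RY11 and of the PPAN-P2RY11 readthrough gene on the same strand, read 924, 902, 839.9 and 813 in high MYC controls and 905, 893, 869 and 994 with inhibitor. At medium MYC it read 598, 622, 664 and 643 in controls and 557, 541, 506 and 500.1 with inhibitor, where the groups did not overlap. The changes were 0.07 ± 0.053 and -0.26 ± 0.053, and the difference was 0.34 ± 0.074 (limma, adjusted p = 0.00494). Reads of PPAN and its overlapping genes may have been divided between them, so its values are uncertain. Across the 51 genes, estimates at the 2 MYC levels, which share no library, had a Pearson r of 0.512 and a Spearman rho of 0.571.

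**Figure D4:**
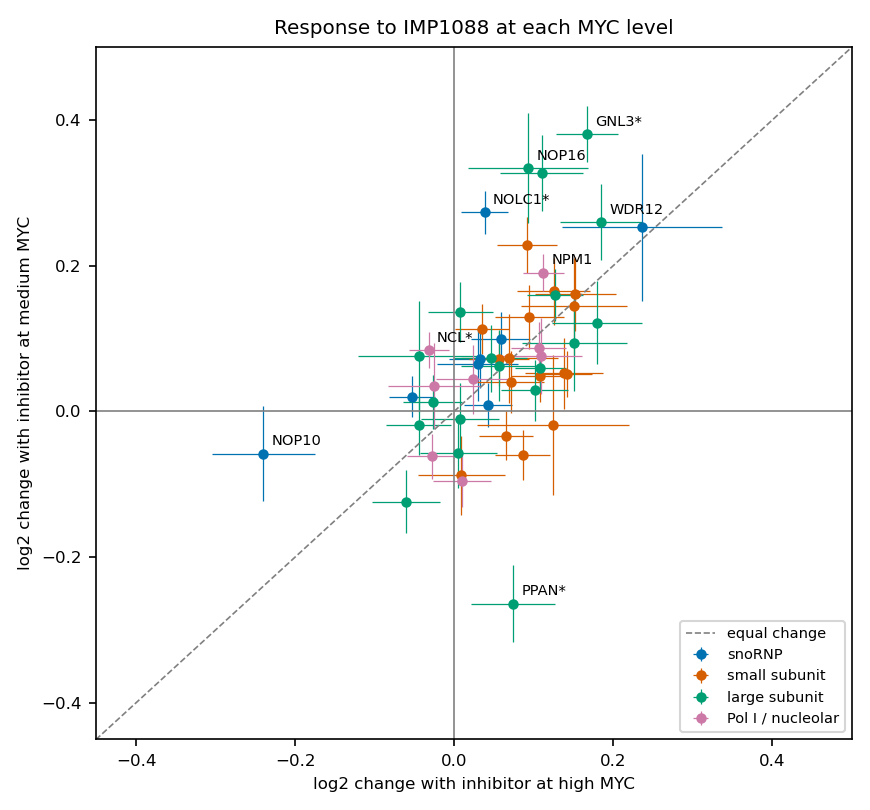
Log2 change with inhibitor at high MYC (x axis) against medium MYC (y axis) for the 51 genes, coloured by role, with standard errors. The dashed line marks equal change, stars mark the 4 genes with a called difference, and all points lie between -0.26 and 0.38 on both axes.

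Other genes of the pathway, 138 in number, were all tested. Among controls 122 were lower at medium MYC, 5 higher and 11 not called, 47 were lower by at least 2-fold, and the median was -0.78. Of the 13765 tested genes, 37.3% were called lower, 10.7% by at least 2-fold, and 5355 genes were called higher. The largest falls by role were NAF1 and ZNHIT6, snoRNP assembly factors, at -1.55 and -1.45, WDR3 and UTP25 of the small subunit at -2.09 and -1.62, and NLE1 and RRP1B of the large subunit at -2.22 and -1.80. Polymerase I subunit POLR1G changed by -2.49 and the RNase P and MRP subunit RPP40 by -1.88. The exosome, which trims the precursor, had 10 of 15 listed genes lower and 2 higher, with a median of -0.27, although its subunits EXOSC5 and EXOSC2 changed by -2.42 and -1.10. The 5 higher at medium MYC were RIOK3, RRP36, EFL1, EXOSC10 and MPHOSPH6, at 0.45, 0.38, 0.32, 0.19 and 0.63.

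With inhibitor, 32 of these 138 were higher and 1, RRP36 at -0.32, lower at high MYC, and 37 were higher and 3 lower at medium MYC, with a median of 0.06 at both. Of all tested genes, 10.5% were called higher and 16.3% lower at high MYC, and 11.7% and 14.6% at medium MYC. The largest changes included the 60S export adaptor NMD3 at 0.30 and 0.32 and the 60S factor RSL24D1 at 0.50 at medium MYC. The response differed between levels for 3, MDN1, NOL9 and POLR1A, at 0.17, 0.16 and 0.16. Among all tested genes 8.63% were called in either direction and 3.31% in this one. The 77 cytosolic ribosomal protein genes were all lower at medium MYC among controls, 7 by at least 2-fold, with a median of -0.82. The shares of all tested genes were 37.3% and 10.7%. With inhibitor 48 of the 77 were higher at high MYC and 70 at medium MYC, against 10.5% and 11.7% of tested genes. None was lower, and the medians were 0.10 and 0.19.

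The annotation sets limits on some values. Exons of 28 members overlap another gene, 21 on the opposite strand and 10 on the same strand, and 12 members have named pseudogenes. Among controls, the 23 members with no overlap were all lower at medium MYC, with a median of -1.33. The 16 with neither an overlap nor a named pseudogene were too, with a median of -1.29, against 37.3% of tested genes called lower. Within the bounds of 8 members, on the same strand, lie 27 annotated snoRNAs, which the overlap counts above leave out. Of these, 23 had no read in any library and 1, SNORD91B in TSR1, had more than 3 reads in a library. The snoRNA levels were therefore not read here.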

How the data were processed

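RNA was extracted with a QIAGEN miRNeasy kit, converted with a Nugen cDNA kit and read on an Illumina HiSeq, per the labels' protocols. The submitters' processing notes list STAR 2.5.2a, RSEM 1.2.31, DESeq2 1.16.1 and GRCh38; the gene annotation and strand use are not given in the sources used here. The deposited values are an expression signal that the authors call normalized counts. Within each library they were whole multiples of 1 step (tolerance 1e-06), so whole reads were recovered; size factors ran from 0.858 to 1.33. Genes were compared with limma 3.58.1 (R 4.3.3) on log2(value + 1), for 13765 genes with a mean of at least 10, with 4 group means over 16 libraries, a mean trend, Benjamini-Hochberg adjustment and calls at an adjusted p under 0.05, two-sided.

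Positions, overlaps and exon lengths are those of GENCODE release 29, which held 57447 of the identifiers; 56948 had a symbol. Library values are given for the extremes of MYC-level change in each role, the smallest p-values for the inhibitor and for its difference in each role, and UBTF, RRN3, FBL and DKC1. Of other pathway genes, those with the largest changes per role are named. Members and lists were chosen with earlier results of these data known. On simulated counts limma recovered 74.7% of 87 genes changed by 0.5 and 95.6% of 113 changed by 1 (log2, inhibitor at high MYC), and called 4 unchanged genes. In the simulated test of differing responses, 52.9% and 89.4% were recovered and 9 unchanged genes called. The simulation gave all genes a common dispersion and changed far fewer genes than the 3689 called with inhibitor at high MYC. The members' inhibitor changes, from -0.26 to 0.38, were smaller in size than those simulated, so recovery at their sizes was not measured. Replicates of a group differed beyond sampling noise (chi-square over degrees of freedom of 1.72 to 10.9). Alternatives were other scalings (equal totals, median-of-ratios, quantile, TMM), pseudocounts of 0.1 and 10, no filter, a filter at 100, fits without a mean trend or limited to the groups compared, a replicate block, GC correction (13694 genes), edgeR 4.0.16 and DESeq2 1.42.0 on recovered reads, and each library left out.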

Additional observations from a re-analysis of the deposited data

Results flagged for a closer look

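In 4 of the 84 sets of 4 libraries examined, over 21 genes, 1 library stood apart from the other 3 by more than Dixon's 95% critical share of the range, where chance gives about 4.2. LYAR was 849.8 in high MYC control replicate 3, against 824 to 828 in the others. NCL was 17395 in the same library, against 16900 to 16984. NPM1 was 19037 there as well, against 18007 to 18101. NPM1 was 6479 in medium MYC control replicate 2, against 6359.7 to 6375. The response to inhibitor at high minus medium MYC differed from 0 in the limma test of the difference for NOLC1 at -0.23, GNL3 at -0.21, NCL at -0.12 and PPAN at 0.34. Among all tested genes 8.63% were called in that test, a share near that of the members.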

How the results depend on the processing

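Under every alternative run, all 51 members stayed called lower at medium MYC among controls, as did the 50 called with inhibitor. The median in controls was -1.24 with quantile normalization and -1.26 with GC correction, alone or with a replicate block, and -1.32 to -1.28 with each library left out; with inhibitor it was -1.31 to -1.29. The inhibitor calls at high MYC were less stable. Their count of 13 was 22 with quantile normalization (median 0.10), 8 with no filter, 21 with GC correction, 21 with GC correction and a replicate block, 20 with edgeR, 12 with the replicate block alone and 6 to 13 with each library left out (median 0.05 to 0.08). At medium MYC the count of 16 was 15 with the replicate block, 11 with the compared groups only, 20 with quantile normalization and 12 to 17 with each library left out (median 0.06 to 0.08). For the difference in response the count of 4 was 3 with the replicate block, 6 with GC correction and 3 to 4 with each library left out (median -0.02 to 0.00). Left-out counts for the MYC level were 51 to 51 in controls and 50 to 50 with inhibitor. Of the genes called, 6 of 13, 10 of 16 and 3 of 4 kept their call in every alternative for the inhibitor at high MYC, at medium MYC and the difference. No direction of a called change reversed. The causes were not tested. The labels number replicates 1 to 4 but do not say that numbers pair libraries, and same-numbered libraries did not deviate together throughout. One pair of the control groups, number 4, had a correlation of 0.239 and was its own best match, against -0.099 to -0.008 for the other 3 numbers. Number 4 of the inhibitor-treated groups, at 0.052, and number 1 of control and inhibitor at medium MYC, at 0.049, were also own best matches. The mean correlations were -0.072, -0.024, 0.024 and -0.018 over the 4 pairwise comparisons. Depth limits RRP9 most, with 87 reads in its lowest library.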
